A study of Mus musculus with 12 samples.

Results

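The 5 genes described here are the stress and follicle keratins Krt6a, Krt6b, Krt16, Krt17 and Krt75, which were picked by symbol from the 32793 genes of the count table. All 5 were found, and all 5 were among the 14608 genes that reached a level of 1 CPM (counts per 1000000 counts of the library) in at least 6 of 12 libraries. RNA-seq was performed on back skin epidermis, freed from the dermis with dispase, of 8 week old mice on a mixed background. The 12 samples were 6 wild type and 6 K14Kif3a-/-, in which Cre recombinase under the K14 promoter of basal keratinocytes removes exon 2 of floxed Kif3a. The mice that carry Cre were bred from a line that also holds a floxed-stop eYFP reporter at R26R, and whether the wild type animals, which are Kif3a+/+, carry Cre or the reporter is not given in the sources used here. The 12 value columns are named by animal, index and lane and carry no genotype, so no value was grouped by genotype and the genotypes were not compared. The libraries are called A to L in the order of the table, and these letters only name columns.

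Keratins are built as pairs of a type I and a type II chain that form the intermediate filaments of epithelial cells. Krt6a and Krt6b are type II chains and Krt16 and Krt17 are type I chains. They are made in the hair follicle, nail and other appendages, and in interfollicular epidermis they are known for their rise after wounding and in inflamed or hyperproliferative skin. Krt75 is a type II chain of the companion layer of the hair follicle, the cell layer between the outer and the inner root sheath. The question asked of the table was whether these 5 genes vary together from library to library.

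The libraries held 17788775 to 37042852 counts. The keratinocyte genes Krt5, Krt14, Krt1 and Krt10 were at 1824 to 8102, 1051 to 3214, 156 to 2710 and 2893 to 16582 CPM. The endothelial markers summed to 1.30 to 5.18 CPM and the 8 dermal fibroblast markers to 33.2 to 309 CPM, highest in D. The 9 immune cell markers summed to 388 to 1184 CPM, the 6 melanocyte markers to 41.4 to 274 CPM and the 10 sebaceous gland markers to 1020 to 2950 CPM. The 13 hair shaft keratins of a list summed to 2399 CPM in library E and 387 CPM in library A, against 11.6 to 54.7 CPM in the other libraries. The 11 inner root sheath genes summed to 7376 CPM in E and 2695 CPM in A, and to 560 to 1530 CPM elsewhere. The 5 striated muscle markers summed to 636 to 679 CPM in D, G and L, which are the 3 libraries of lane 4, and to 14.3 to 298 CPM in the others. In bulk tissue, fewer cells of a type and less RNA per cell cannot be told apart. No pair of libraries agreed within sampling noise (chi-square per degree of freedom of 12.8 to 483).

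All 5 genes lie on the minus strand in GRCm38, the build also called mm10. Krt6b (chr15:101676023-101680287) and Krt6a (chr15:101689910-101694307) are neighbours, and Krt75 (chr15:101563345-101573904) is in the same type II cluster. Krt16 (chr11:100246091-100248902) and Krt17 (chr11:100256217-100261029) lie side by side in the type I cluster, next to Krt42 (chr11:100262882-100269871). The coding sequences of Krt6a and Krt6b were identical at 1622 of 1659 aligned bases (97.8%), with 37 differing bases and a longest identical run of 280 bases. The pair is shown because a read of 51 bases can be placed with one gene only where it covers a difference. The first stretch lies in exon 4 at chr15:101692484-101692573 for Krt6a and chr15:101678303-101678392 for Krt6b, and its 12 differing bases are in capitals.
Krt6a: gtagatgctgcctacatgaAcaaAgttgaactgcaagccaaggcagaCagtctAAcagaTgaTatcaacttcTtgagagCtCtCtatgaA
Krt6b: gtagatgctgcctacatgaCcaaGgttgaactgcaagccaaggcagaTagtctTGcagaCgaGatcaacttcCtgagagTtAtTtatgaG
The second stretch lies in exon 1 at chr15:101694126-101694215 for Krt6a and chr15:101680101-101680190 for Krt6b, and both genes read the same over its 90 bases.
Krt6a: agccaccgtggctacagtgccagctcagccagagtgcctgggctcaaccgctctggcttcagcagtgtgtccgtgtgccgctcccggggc

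Of the 51-base windows of the reference transcripts, 61.8% for Krt6a, 49.7% for Krt6b and 37.03% for Krt16 occurred in at least 1 other gene on either strand. The share was 3.60% for Krt17 and 2.46% for Krt75. Krt6a and Krt6b had 965 windows in common, which is 43.3% of those of Krt6a and 44.2% of those of Krt6b. With Krt5, which was at 1824 to 8102 CPM, Krt6a shared 148 windows (6.64%) and Krt6b 47 (2.15%). The part of Krt5 reads in the low counts of Krt6b was not tested. Krt16 shared 379 windows with Gm11597 and 182 with Krt14, and 5 with Krt17. Reads from such windows are divided between genes by the authors' counting, so the counts of Krt6a, Krt6b and Krt16 are uncertain to that extent, while those of Krt17 and Krt75 rest almost entirely on windows of their own.

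**Figure D1:**
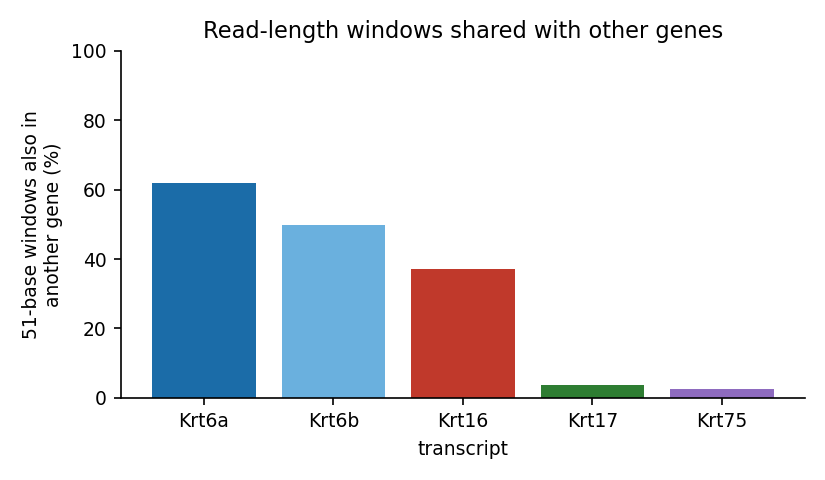
Bars give the percentage of 51-base windows of each reference transcript that also occur in another gene. Krt6a, Krt6b and Krt16 stand at 61.8%, 49.7% and 37.03%, and Krt17 and Krt75 at 3.60% and 2.46%.

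Krt17, a type I chain of the follicle outer root sheath that is induced on injury, was the most abundant of the 5. Its levels in libraries A to L were 5505, 4887, 7046, 2262, 1219, 6786, 2453, 11582, 5308, 1286, 1702 and 1621 CPM, with a median of 3670 CPM. Library H was highest and library E lowest, a ratio of 9.50. Krt17 made up 45.8% to 93.6% of the summed CPM of the 5 genes, and the 5 genes together took 0.224% to 1.25% of all counts.

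Krt6a, the type II chain expressed at the higher level of the 2 Krt6 genes, was at 256, 305, 266, 474, 476, 495, 325, 685, 269, 1028, 776 and 432 CPM in libraries A to L. Library J was highest and library A lowest, a ratio of 4.01. Krt75 was at 109, 138, 131, 155, 216, 76.1, 352, 104, 89.0, 222, 223 and 218 CPM. Library G was highest and library F lowest, a ratio of 4.62, which fell to 2.93 without library G. These 2 genes had the narrowest ranges of the 5.

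Krt16, the type I partner of the Krt6 chains, was at 90.1, 35.2, 76.4, 70.5, 187, 53.7, 23.5, 80.4, 29.7, 225, 124 and 47.5 CPM in libraries A to L. Libraries J, E and K were highest and libraries G, I and B lowest, with a ratio of 9.59 between J and G. Krt6b was at 27.3, 1.09, 5.78, 2.58, 145, 19.4, 0.324, 17.4, 0.729, 48.2, 56.4 and 5.92 CPM. Libraries E, K and J were highest and libraries G, I and B lowest, so the same 3 libraries stood at the top and the same 3 at the bottom for Krt6b and Krt16. The ratio of Krt6b between E and G was 447 and rests on 12 counts in G, for which the exact 95% Poisson interval was 0.167 to 0.566 CPM and covers counting error only. Without library G or E in turn, the ratio was at least 174.

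**Figure D2:**
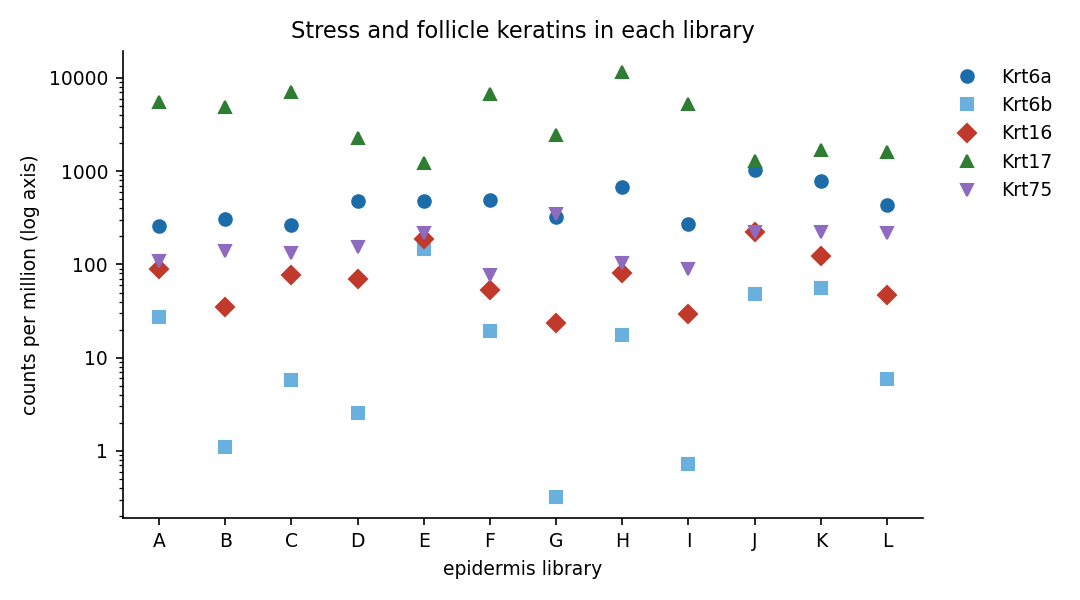
Each point is the level of 1 gene in 1 library, in CPM on a log axis, for the 12 epidermis libraries A to L. Krt17 is the highest of the 5 in each library, and Krt6b runs from 0.324 CPM in library G to 145 CPM in library E.

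The spread between libraries was large for these genes. The SD of log2(CPM + 0.5) over the 12 libraries was 2.40 for Krt6b, 1.10 for Krt17, 1.0 for Krt16, 0.66 for Krt6a and 0.66 for Krt75, against a median of 0.44 over the 14608 genes. The SD of Krt6b exceeded that of 99.8% of these genes, and that of Krt6a exceeded 82.2%. Counting error was small beside this spread, at 28.9% of the level for the 12 counts of Krt6b in library G and at most 3.80% for the lowest count of any of the other 4 genes.

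Divided by transcript length, the median levels were 2366 CPM per kb for Krt17, 199 for Krt6a, 46.9 for Krt16, 44.8 for Krt75 and 5.21 for Krt6b. Krt17 was above Krt6a, Krt6a above Krt16, and Krt75 above Krt6b in 12 of 12 libraries. Krt16 was above Krt75 in 7 of 12, and these neighbours did not differ beyond their spread. The ratio of Krt6a to Krt6b ran from 3.29 in library E to 1004 in library G, so Krt6b was no fixed share of Krt6a. The ratio of Krt17 to Krt16 ran from 5.71 in J to 179 in I.

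Krt6b and Krt16 varied together more closely than any other of the 10 pairs over the 12 libraries. Over the 12 libraries, Pearson's r of log2(CPM + 0.5) was 0.90 (permutation p = 7e-05) and Spearman's rho was 0.90 (permutation p = 0.00017). Without E and G, the 2 libraries farthest from the median of Krt6b, r was 0.84 (permutation p = 0.00194). Within the 8 libraries of lane 5, the only lane with more than 3 libraries, r was 0.91 (exact permutation p = 0.00384), and without libraries A and E, which had the highest hair shaft sums, it was 0.88 (permutation p = 0.00077). Leaving out any 1 library gave r between 0.88 and 0.93. Krt16 was the gene with the highest r to Krt6b of the 14607 others, and Krt6b the one with the highest r to Krt16. All permutation tests here were two-sided, 10 pairs were tested, and the p-values are not adjusted over the 5 genes, which were chosen with earlier results known.

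Krt6b also followed Kdm5d, a gene of the Y chromosome, which had the third highest r to it (0.89). Kdm5d was at 21.4 to 29.7 CPM in libraries A, E, F, H, J and K and at 1.87 to 4.29 CPM in the other 6. Krt6b was at 17.4 to 145 CPM in the former and at 0.324 to 5.92 CPM in the latter. Xist, the RNA that coats the inactive X chromosome, was at 1.29 to 22.7 CPM in the former and at 521 to 911 CPM in the latter. Eif2s3y, also of the Y chromosome, was at 73.9 to 141 CPM in the former and at 0.0688 to 0.275 CPM in the latter. The sex of the animals is not in the labels, and its part in the levels of Krt6b was not tested. The share of all genes whose levels separate these sets as Krt6b does was not counted. Within the 6 libraries of higher Kdm5d, r of Krt6b and Krt16 was 0.80 (exact permutation p = 0.0597), and within the other 6 it was 0.86 (exact permutation p = 0.0486).

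For Krt6a, r with these 2 genes was lower over all 12 libraries and varied with the libraries included. It was 0.64 with Krt16 (permutation p = 0.0242) and 0.59 with Krt6b (permutation p = 0.0438), while rho was 0.50 (permutation p = 0.0982) and 0.55 (permutation p = 0.0698). Without A and J, the 2 libraries farthest from the median of Krt6a, r with Krt16 was 0.62 (permutation p = 0.057) and r with Krt6b was 0.71 (permutation p = 0.0231). The relation with Krt16 depended on library J, without which r was 0.48 (permutation p = 0.131), and on library I, without which p was 0.0545. The relation with Krt6b missed the threshold when any 1 of B, C, F, G, H, I, J, K or L was left out, with p between 0.053 and 0.0915. Within the 6 libraries of higher and the 6 of lower Kdm5d, r of Krt6a and Krt6b was 0.12 and 0.32, and neither passed an exact permutation test (p = 0.829 and 0.511). For Krt6a and Krt16 it was 0.44 and 0.31 (exact permutation p = 0.396 and 0.514). These sets also lie on the 2 sides of the widest gap of Krt6b, so the split cuts its range. With 6 libraries in a set, these tests cannot decide whether the relations of Krt6a hold. Without A and E the relations were closer, with r of 0.85 for Krt6b and 0.83 for Krt16 (permutation p = 0.00259 and 0.00321). Within lane 5 both had an r of about the same size, 0.75 and 0.74 (exact permutation p = 0.0381 and 0.0408, n = 8).

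For Krt75, no relation with Krt6a, Krt6b or Krt16 passed the test over all 12 libraries. Its r was 0.27 with Krt6a, 0.03 with Krt6b and 0.15 with Krt16 (permutation p = 0.396, 0.92 and 0.645), and rho was 0.31, 0.11 and 0.16 (permutation p = 0.331, 0.733 and 0.62). Without the 2 libraries farthest on the first gene, r was 0.07, 0.29 and 0.50 (permutation p = 0.837, 0.408 and 0.143). Within lane 5, r of Krt16 and Krt75 was 0.80 (exact permutation p = 0.0219, n = 8). Lane 4, with 3 libraries, and lane 6, with 1, were too small to give a value. Restricting to lane 5 also drops library G, and without G alone r was 0.59 (permutation p = 0.0566), so lane and library cannot be told apart here. Within the 6 libraries of higher Kdm5d, r of Krt75 was 0.93 with Krt16, 0.84 with Krt6b and 0.50 with Krt6a (exact permutation p = 0.0111, 0.0458 and 0.294). Within the 6 of lower Kdm5d it was -0.29, -0.14 and 0.40 (exact permutation p = 0.576, 0.79 and 0.446), and the difference between the sets was not tested.

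The levels of Krt17 left a gap between 2453 and 4887 CPM with 6 libraries on each side, which took 30.6% of its log2 range. An r of its pairs over all 12 libraries spans this gap. With Krt75, r was -0.79 and rho -0.74 (permutation p = 0.00327 and 0.00779). Within lane 5 they were -0.87 and -0.71 (exact permutation p = 0.0123 and 0.0576, n = 8). With Krt6a, Krt6b and Krt16, r over all 12 was -0.41, -0.30 and -0.41 (permutation p = 0.182, 0.342 and 0.191). Krt6b also had 6 libraries on each side of its widest gap, between 5.92 and 17.4 CPM and 19.8% of its log2 range, and these are the 2 sets of lower and higher Kdm5d for which r was given above. Among D, E, G, J, K and L, which lie below the gap, r with Krt6b was -0.90 (exact permutation p = 0.0167) and r with Krt16 was -0.84 (exact permutation p = 0.0417), each over 6 libraries. Among A, B, C, F, H and I, above the gap, r was 0.53 and 0.57 (exact permutation p = 0.279 and 0.237). With Krt6a, r was -0.58 below and 0.82 above the gap (exact permutation p = 0.222 and 0.0639). With Krt75, r was 0.20 below and -0.14 above it (exact permutation p = 0.787 and 0.801). The difference between the 2 sides was not tested, and with 6 libraries a side only a very close relation can pass. Each side also holds only part of the range of Krt17. Within the 6 libraries of higher Kdm5d, r of Krt17 with Krt6a, Krt6b, Krt16 and Krt75 was -0.37, -0.90, -0.88 and -0.92 (exact permutation p = 0.507, 0.0194, 0.0389 and 0.0583). Within the 6 of lower Kdm5d it was -0.88, -0.09, 0.08 and -0.68 (exact permutation p = 0.0167, 0.84, 0.882 and 0.14).

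**Figure D3:**
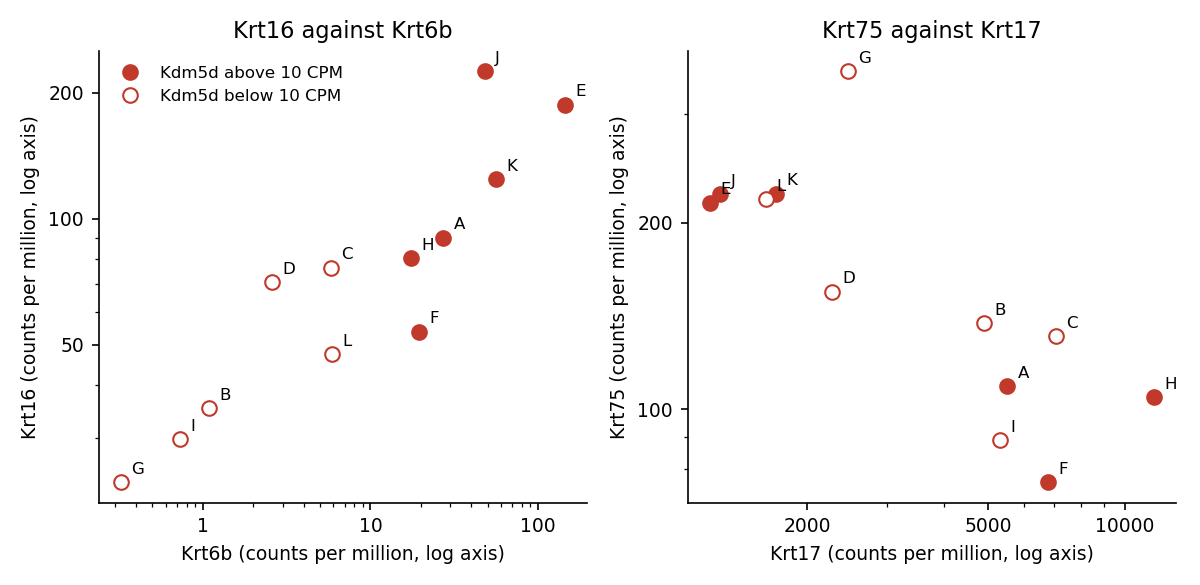
Each point is 1 library, named by its letter, with levels in CPM on log axes, and filled points have Kdm5d above 10 CPM. Krt16 climbs with Krt6b from library G to libraries E and J, and Krt17 leaves a gap between 2453 and 4887 CPM.

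A fit across all genes was then made with each of the 5 keratins in turn as the covariate (edgeR quasi-likelihood test, Benjamini-Hochberg adjustment over all genes). A slope is the log2 change of a gene per doubling of the covariate keratin. Of 20 ordered pairs, 1 was called with a positive slope and 1 with a negative slope. Krt16 rose by 0.39 ± 0.06 (SE, edgeR adjusted p = 0.0234) per doubling of Krt6b. With Krt6b as covariate, 0.144% of 14607 genes were called as rising and 0.157% as falling, and of the 4 other keratins Krt16 alone was called. In the reverse fit, with Krt16 as covariate, the slope of Krt6b was 2.41 ± 0.37 (edgeR adjusted p = 0.103). The call of Krt16 was lost without library B, E or I (edgeR adjusted p = 0.0745, 0.0927 and 0.073), and it was also lost without A and E together, within lane 5 and with Kdm5d as a further covariate (edgeR adjusted p = 0.239, 0.105 and 0.133), with slopes of 0.41, 0.40 and 0.56. The slope itself stayed between 0.34 and 0.41 in every fit that left out 1 library.

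Krt75 fell by 0.47 on the log2 scale per doubling of Krt17 (SE 0.12, edgeR adjusted p = 0.0466). With Krt17 as covariate, 1.69% of genes were called as rising and 1.24% as falling. In the reverse fit the slope of Krt17 on Krt75 was -1.24 ± 0.30 (edgeR adjusted p = 0.0645), where 0.507% of genes were called as rising and 0.602% as falling. The call of Krt75 was lost when any 1 of 10 libraries was left out, with adjusted p between 0.0615 and 0.108, and held without E or G. It was also lost within lane 5 and without A and E (edgeR adjusted p = 0.103 and 0.0813), with slopes of -0.41 and -0.50. The slope stayed between -0.53 and -0.42 in every fit that left out 1 library. This slope spans the gap in Krt17, and r within the sides was 0.20 and -0.14 as given above.

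With Krt6a or Krt16 as covariate, 0% of genes were called by edgeR in either direction. At an unadjusted p under 0.05 there were 528 genes for Krt6a and 1431 for Krt16, and DESeq2 called 10 and 79. In simulated data with Krt16 as covariate, only 19% of genes with a slope of size 0.5 were called by edgeR, so slopes of that size are mostly missed. The other 18 ordered pairs did not pass, with slopes that include 0.88 ± 0.31 for Krt16 on Krt6a and -0.42 ± 0.19 for Krt16 on Krt17.

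**Figure D4:**
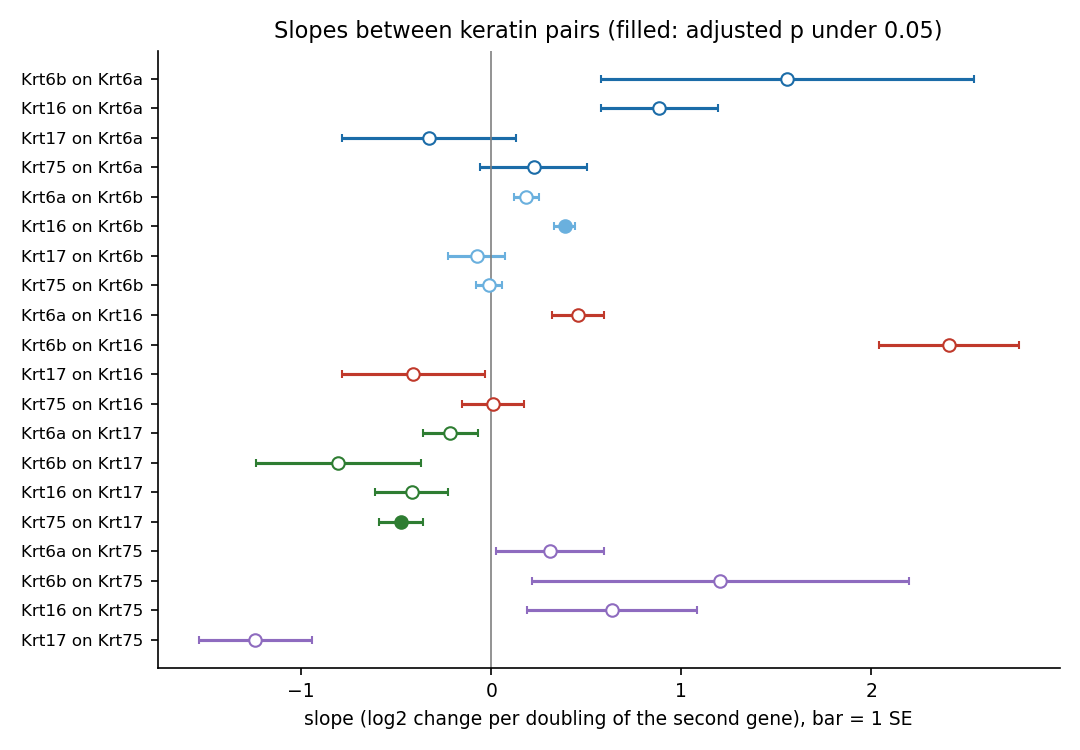
Points are edgeR slopes of the first gene on the second, as log2 change per doubling, with bars of 1 SE, and filled points have an adjusted p under 0.05. The 2 filled points are Krt16 on Krt6b at 0.39 and Krt75 on Krt17 at -0.47.

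The genes closest to each keratin by r over the 12 libraries were then listed as a description. For Krt17 they were Igfbp4, which binds insulin-like growth factors, the neighbouring type I keratin Krt42 and Lmcd1, with r of 0.98, 0.98 and 0.97 across the gap in Krt17. Their edgeR slopes on Krt17 were 0.96, 1.18 and 0.99 (adjusted p = 3.73e-05, 0.00011 and 0.000158). For Krt75 they were the growth factor Fgf5, known for ending the growth phase of hair, Gm1600 and Bmper, which binds bone morphogenetic proteins, with r of 0.95, 0.94 and 0.94. Fgf5 rose by 1.78 ± 0.21 per doubling of Krt75 (edgeR adjusted p = 0.00363), and was at only 0.317 to 3.05 CPM. It reached 1 CPM only in D, E, G, J, K and L, which are the libraries of highest Krt75. Fgf5 thus passed the filter only through the libraries where Krt75 was high, and its place in this list is no separate support. For Krt6b they were Krt16, Il1f8 and Kdm5d, and for Krt16 they were Krt6b, the cornified envelope gene Sprr1b and Igf2bp3 (r of 0.87 and 0.86 for the last 2). Il1f8, a cytokine of the IL-1 family, rose by 0.35 ± 0.06 per doubling of Krt6b (edgeR adjusted p = 0.0234). For Krt6a they were Sgms1, Lrrfip2 and Fam46b, with r of 0.88, 0.88 and 0.87 and none called by edgeR (adjusted p = 0.988, 1 and 0.237).

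Of 20 transcription factors tied to stress keratins in a list, 3 rose with Krt17 and none fell, beside 1.69% of all genes rising and 1.24% falling, and the median slope was 0.05 against 0.01 over all genes. They were Gli1 and Gli2, factors at the end of the Hedgehog pathway, and Trp63, the master factor of stratified epithelium. These genes and the others called in the lists were named after their values were seen. Gli1 was at 7.38 to 175 CPM and rose by 1.28 ± 0.18 per doubling of Krt17 (edgeR adjusted p = 0.00175). Gli2 was at 4.94 to 114 CPM and rose by 1.24 ± 0.20 (edgeR adjusted p = 0.00389). Both stayed called in each of the 12 fits that left out 1 library, with the highest adjusted p at 0.00925 and 0.0192, and in the 9 other alternatives. Trp63 rose by 0.36 ± 0.09 (edgeR adjusted p = 0.0498), but was lost in 10 of the 12 fits.

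Within the 6 libraries below the gap in Krt17, r of Krt17 with Gli1 and Gli2 was -0.23 and -0.26, and within the 6 above it 0.44 and 0.48 (exact permutation p = 0.685, 0.564, 0.411 and 0.331). For Trp63 it was -0.41 below and 0.10 above (exact permutation p = 0.426 and 0.851). No relation of these 3 genes with Krt17 passed the test within a side, and their slopes span the gap. The sides were cut on Krt17 itself and hold 6 libraries each, so they cannot decide whether the relations hold. Within lane 5, r for Gli1, Gli2 and Trp63 was 0.93, 0.93 and 0.91 (exact permutation p = 0.00563, 0.00253 and 0.00687, n = 8). Without A and E it was 0.89, 0.85 and 0.75 (permutation p = 0.00261, 0.00566 and 0.0157). Both of these sets also span the gap. Sostdc1, a secreted BMP and Wnt antagonist, was the only 1 of 12 outer root sheath and companion layer genes called with Krt17. Over all genes, 1.69% were called as rising and 1.24% as falling. The median slope of the 12 was 0.0057, against 0.0068 over all genes, so the list as a whole did not follow Krt17. Sostdc1 rose by 0.46 ± 0.09 (edgeR adjusted p = 0.011), with an adjusted p of 0.0848 without library H. Its r within the sides was 0.71 and 0.84 (exact permutation p = 0.136 and 0.0667).

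**Figure D5:**
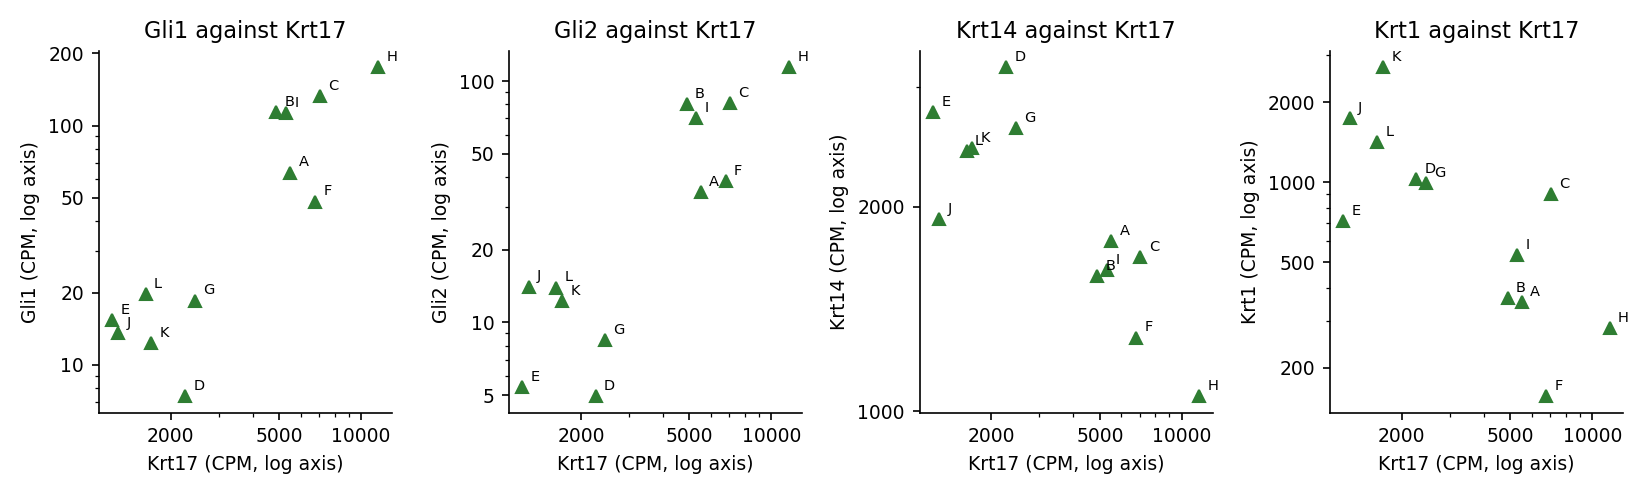
Each point is 1 library, with CPM on log axes. Krt17 leaves a gap between 2453 and 4887 CPM, and over the 6 libraries on its left r with Krt17 was -0.23 for Gli1, -0.26 for Gli2, 0.54 for Krt14 and -0.08 for Krt1.

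Of 9 interfollicular keratins, 2 fell with Krt17 and none rose, beside 1.24% of all genes falling and 1.69% rising, and their median slope was -0.16 against 0.01. Krt14, the type I chain of basal cells, fell by 0.37 on the log2 scale per doubling of Krt17 (SE 0.09, edgeR adjusted p = 0.0377), and Krt1, the type II chain of spinous cells, fell by 0.82 (SE 0.20, edgeR adjusted p = 0.0459). Krt14 was lost in 9 and Krt1 in 10 of the 12 fits that left out 1 library, with adjusted p up to 0.203 and 0.163. Within the sides of the gap in Krt17, r with Krt14 was 0.54 below and -0.83 above (exact permutation p = 0.268 and 0.0569), and r with Krt1 was -0.08 and -0.20 (exact permutation p = 0.85 and 0.661). Krt7, the only 1 of 5 simple epithelial keratins past the filter, was at 2.78 to 14.4 CPM and rose by 0.64 ± 0.09 (edgeR adjusted p = 0.0013) in all 12 such fits.

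Of 19 wound and stress response partners past the filter, 3 fell with Krt17 and none rose, beside the same 1.24% and 1.69% of all genes, and their median slope was -0.11 against 0.01. They were Il1rn, the antagonist of the IL-1 receptor, the alarmin Il33 and Ptgs2, the inducible cyclooxygenase. Il1rn fell by 0.45 (SE 0.08, edgeR adjusted p = 0.0084) and Il33 fell by 0.56 (SE 0.09, edgeR adjusted p = 0.00497), and both were called in all 12 fits that left out 1 library and lost within lane 5. Ptgs2 fell by 0.72 (SE 0.18, edgeR adjusted p = 0.0427) and was lost in 9 of the 12. Of 10 plakins and desmosomal anchors 1 fell, the plakophilin Pkp2, by 0.35 (SE 0.09, edgeR adjusted p = 0.0441), and it was lost in 10 of the 12.

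With Krt6b as covariate, 2 of the 19 wound and stress response partners rose and none fell, beside 0.144% of all genes rising and 0.157% falling, with a median slope of 0.15 against -0.04 over all genes. Il1b, the inflammatory cytokine, was at 0.386 to 17.4 CPM, highest in E and A, and rose by 0.60 ± 0.10 per doubling of Krt6b (edgeR adjusted p = 0.0234). It passed the filter through A, D, E, F, J and K, which except for D are libraries of higher Krt6b. As for Fgf5 with Krt75, the call of Il1b and its place among the 2 are therefore no separate support. Gjb2, the gap junction protein connexin 26, was at 3.76 to 111 CPM, again highest in E and A, and rose by 0.49 ± 0.09 (edgeR adjusted p = 0.0418). Of 3 hair shaft keratins past the filter, 1 was called. This was Krt33a, at 421 CPM in E and 55.5 CPM in A, which rose by 1.20 ± 0.22 (edgeR adjusted p = 0.0384). Of 9 immune cell markers, only H2-Ab1, a class II antigen presentation gene, was called, and it fell by 0.24 (SE 0.03, edgeR adjusted p = 0.0234). Cd74, another marker of that list, was not called, and the median slope of the 9 was -0.11. Il1b and H2-Ab1 were lost without B, E or I, Gjb2 in 9 of 12 and Krt33a in 7 of 12 fits that left out 1 library, and without A and E edgeR called 0 genes with Krt6b, while 1192 had an unadjusted p under 0.05. The part of hair shaft material in these slopes was not tested.

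Trp63, 1 of 20 listed transcription factors, was the only list gene called with Krt75 as covariate. Over all genes, 0.602% were called as falling and 0.507% as rising, and a single call is too few to set against that share. Trp63 fell by 0.69 per doubling (SE 0.13, edgeR adjusted p = 0.0248), and the call was lost in 6 of 12 fits that left out 1 library. No list gene was called with Krt6a or Krt16, where no gene of the table passed. The lists of proliferation genes, sebaceous gland markers, melanocyte markers, inner root sheath genes, fibroblast, muscle and endothelial markers held no gene called with any of the 5 keratins. The lack of calls does not show a lack of relation. For the 8 inner root sheath genes tested, the median slope was -0.59, 0.90, 2.31, -0.98 and 1.40 on Krt6a, Krt6b, Krt16, Krt17 and Krt75. For the 5 striated muscle markers it was -0.69, -0.53, -1.38, -1.18 and 1.54. Over all genes it was -0.07, -0.04, -0.07, 0.01 and 0.06. These shifts of whole lists were not tested.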

How the data were processed

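PolyA RNA libraries were made with a directional kit and sequenced as single reads of 51 bases. Quality-trimmed reads were mapped by the authors to mm10 with Bowtie 2 and summarised per gene by RSEM. The deposited counts are whole numbers and are treated here as raw counts. FastQC is also named in the submitters' processing notes. Of the symbols, 26 had been turned into dates. All 12 columns belong to epidermis of 8 week old mice, 6 samples of each genotype, but their names carry no genotype. The genotype comparison set out in the design was therefore not run.

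CPM used the total count of each library (17788775 to 37042852). Genes with at least 1 CPM in 6 libraries were kept. Log values were log2(CPM + 0.5). Correlations were tested with 100000 permutations, or over all pairings for up to 8 libraries. Fits used edgeR 4.0.16 (glmQLFit, glmQLFTest) in R 4.3.3 with the log2 CPM of 1 keratin as covariate, and the SE is the slope divided by the square root of F. DESeq2 1.42.0, TMM, median-of-ratios, totals without the 5 genes, no filter, a depth covariate, other pseudocounts and leaving out libraries were alternatives. The fitting code was tested on simulated data with Krt16 as covariate. Of genes given a slope of size 0.5, 19% were called, and of those given a slope of size 1, 84%. Of all calls, 5.5% were false. The p-values rest on the spread between these libraries, which mix 6 wild type and 6 K14Kif3a-/- samples in columns that carry no genotype. In an r or slope over all libraries, variation within a genotype and a shift between genotypes can therefore not be told apart.

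The genes open to naming were the 5 keratins, the 3 other genes with the highest r to each, the up to 4 most abundant genes of each of 15 lists, and Krt5, Krt14, Krt1 and Krt10. Genes called within lists were added after their values were seen. Of 159 list genes, 158 matched by symbol. The 5 keratins and the lists were chosen with earlier results of these data known. Sequences and positions are from GENCODE M21 on GRCm38. Python 3.11.15 and matplotlib 3.10.9 were used.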

Additional observations from a re-analysis of the deposited data

How the results depend on the processing

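The count of ordered keratin pairs called with a positive slope was 1. It was 2 with TMM, with median-of-ratios scaling, without the filter and with DESeq2, and 0 with Kdm5d as a further covariate, within lane 5 and without A and E. It stayed 1 with the total without the 5 genes and with a depth covariate. The count with a negative slope was 1. It was 2 with TMM, median-of-ratios scaling and DESeq2, and 0 without the filter, with the depth covariate, within lane 5 and without A and E. Leaving out 1 library gave 0 to 2 for both counts. Of the 10 pairs, 4 had a permutation p under 0.05 by Pearson's r (Krt6b with Krt16, Krt6a with Krt6b and with Krt16, and Krt17 with Krt75, the last across the gap in Krt17). Spearman's rho gave 2, and leaving out 1 library gave 2 to 4. The r of Krt6b and Krt75, at 0.03, ran from -0.14 to 0.41 when 1 library was left out, below 0 without E, I, J or K (-0.10, -0.14, -0.05 and -0.06), and was -0.042 without A and E. The r of Krt6a and Krt6b was 0.35 on CPM with no log. The alternatives with Kdm5d, lane 5 and libraries A and E were chosen after seeing the data.

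Counts over all genes moved more than those of the keratins. For Krt6b, edgeR called 44 genes, against 259 without the filter, 590 with DESeq2, 31 with the depth covariate and 6 within lane 5. It called 0 without A and E and 0 with Kdm5d, where 1192 and 2178 genes had an unadjusted p under 0.05. For Krt17 it called 428, against 833 with DESeq2 and 98 within lane 5. For Krt75 it called 162, against 386 without the filter, 612 with DESeq2, 61 with the depth covariate and 0 within lane 5, where 1230 genes had an unadjusted p under 0.05. Among genes called with Krt17, Krt14, Ptgs2 and Pkp2 were lost with TMM, median-of-ratios scaling, no filter and the depth covariate, with the direction kept. The cause of these changes was not tested, except that lane 5 has fewer samples. No paired analysis was possible because the columns carry no replicate number. The lowest value of Krt6b rests on 12 counts in library G, which is the deepest of the libraries at 37042852 counts.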

Other observations

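The labels put no column in a genotype, and the levels of Krt17 lie 6 and 6 on the sides of their widest gap, whose width was not tested. In ascending order they were 1219 (E), 1286 (J), 1621 (L), 1702 (K), 2262 (D), 2453 (G), 4887 (B), 5308 (I), 5505 (A), 6786 (F), 7046 (C) and 11582 CPM (H). The widest gap took 30.6% of the log2 range. In the same order of libraries, Gli1 was at 15.3, 13.5, 19.8, 12.3, 7.38, 18.5, 113, 113, 63.6, 48.1, 133 and 175 CPM. Gli2 was at 5.41, 14.1, 13.9, 12.3, 4.94, 8.45, 80.2, 70.2, 34.7, 38.5, 81.3 and 114 CPM. Krt75 was at 216, 222, 218, 223, 155, 352, 138, 89.0, 109, 76.1, 131 and 104 CPM. Each side of the gap held libraries of high and of low Kdm5d, and which animals make up either side was not determined.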
